A study of Mus musculus with 9 samples.

Results

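The genes described here mark the brain and stromal cells that can accompany microglia in a cortical culture: 17 markers of astrocytes, 9 of the oligodendrocyte lineage, 7 of neurons, 4 of fibroblasts and 2 of endothelium. Of the 39 listed symbols, 37 were measured among 17097 genes; Cspg4, a marker of oligodendrocyte progenitors, and Dcx, a marker of young neurons, were not analysed here. Where several probe sets carried the symbol, the brightest over all arrays stood for the gene. The samples were primary microglia shaken off glial monolayers of cortices, stripped of their meninges, from P0-P2 C57BL/6J mice. There were 3 groups of 3 samples, the first being untreated controls. The second was kept for 6 h in glioma conditioned medium (GCM) of the human glioblastoma line LN18 (GCM LN18). The third was kept for 6 h in that of the human glioblastoma line U87-MG (GCM U87-MG). The study's methods state that experiments were repeated on independent passages or cultures, but the labels do not say which samples share a culture. Each medium came from 1 established line, both media were compared with the same 3 controls, and all cells were neonatal and cultured. Each sample was read on 1 Affymetrix MG-430 PM strip array, and values are log2 signals.

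Microglia are the resident macrophages of the brain and come from the yolk sac, whereas astrocytes, oligodendrocytes and neurons come from the neuroectoderm. A neonatal cortical culture grows an astrocyte layer with oligodendrocyte progenitors, vessel cells and any remaining meningeal fibroblasts, and microglia are harvested from its surface. The level of markers of those cells therefore bears on the purity of the harvest. Some markers are strict, such as Gfap, the intermediate filament of astrocytes, and Mog, a protein of the myelin surface. Others, such as Cpe, an enzyme that trims prohormones, or Cnp, an enzyme abundant in myelin-forming cells, are made in more than 1 cell type.

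No detection calls were used for these arrays, so background was read from genes restricted to other organs, such as milk, pancreas, bladder and muscle proteins. Of 68 such genes 57 were measured, and the 95th percentile of their control means was a log2 signal of 5.61 and the 90th was 4.25. The genes of this list above its 95th percentile were Csn2, a milk casein, at 6.68, Tff1, a secreted gastric peptide, at 6.34, and Cela1, a pancreatic elastase, at 6.26. Over all 17097 genes, 39.4% had a control mean above the 95th percentile of this list and 50.9% above its 90th percentile. Probe sets differ in brightness at equal RNA, so a level below background says only that the gene was not distinguishable from unexpressed ones, and the order of different genes by signal is not an order of their RNA.

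In untreated microglia, 3 of 37 markers lay above the 95th percentile of background and 7 above the 90th. The control means of the other 30 were below both, and their values on single arrays of all groups lay between 2.07 and 4.27. The median control level of the markers was 3.24, beside 4.34 for the median gene over all arrays. By lineage, 2 of 17 astrocyte markers, 1 of 8 oligodendrocyte markers, and 0 of 6 neuronal, 0 of 4 fibroblast and 0 of 2 endothelial markers lay above the 95th percentile. Among known markers of microglia on the same arrays, 17 of 19 lay above the 95th percentile, beside 39.4% of all genes. These 17 also lay above the brightest tissue-restricted gene. Their control means ran from 7.52 for Spi1, the myeloid master transcription factor PU.1, to 12.19 for Ctss, a lysosomal protease. The other two were Tmem119 at 3.88 and P2ry12 at 3.44, both genes of mature homeostatic microglia, which lay below background.

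**Figure D1:**
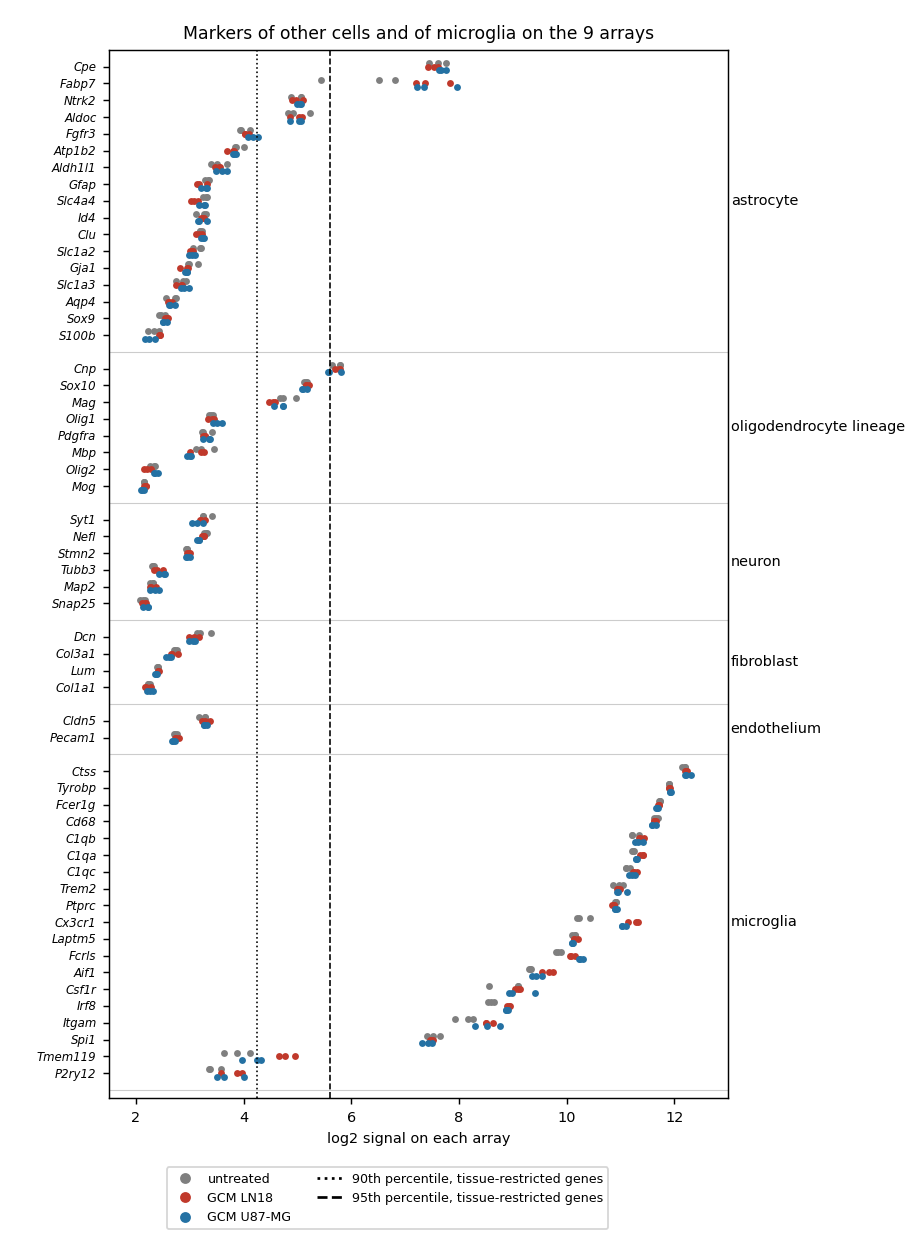
Log2 signal of each of 37 markers of other brain and stromal cells and of 19 microglia markers (x axis, log2 signal) on all 9 arrays, coloured by group, with the 90th (dotted) and 95th (dashed) percentile of the control means of 57 tissue-restricted genes. Only Cpe, Fabp7 and Cnp among the 37 markers have a control mean above the dashed line at 5.61, while 17 microglia markers lie well to the right of it.

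Of the astrocyte markers, Cpe and Fabp7 lay above the 95th percentile. The log2 signal of Cpe was 7.60, 7.75 and 7.45 in the controls, 7.54, 7.43 and 7.60 in GCM LN18, and 7.67, 7.63 and 7.76 in GCM U87-MG. It was the only marker above the brightest tissue-restricted gene, and its controls overlapped with both media. Fabp7, a fatty acid binding protein of radial glia and young astrocytes, stood at 6.82, 5.44 and 6.52 in the controls. In the deposited values control replicate 2 was thus below the 95th percentile and the other controls above it. The replicate numbers had equal means for every probe set, so these differences between controls do not rank the cultures.

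The defining astrocyte markers were not among those above background. Gfap read 3.27, 3.35 and 3.34 in the controls, and its other 2 probe sets were dimmer still, with control means of 2.73 and 2.32. Aqp4, the water channel of astrocyte endfeet, had a control mean of 2.67, the glutamate transporters Slc1a3 and Slc1a2 had 2.85 and 3.15, Aldh1l1, a folate enzyme used to mark all astrocytes, had 3.53, and Gja1, the gap junction protein connexin 43, had 3.03. S100b, a calcium-binding protein of astrocytes, had 2.33, and Sox9, a glial transcription factor, 2.47. These 8 genes lay between 2.16 and 3.69 on every array of the series. Clu, a secreted chaperone, Id4, an inhibitor of differentiation, Fgfr3, a growth factor receptor, Atp1b2, a sodium pump subunit, and Slc4a4, a bicarbonate transporter, had control means from 3.20 to 4.00, also below both percentiles.

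Another 2 astrocyte markers lay between the 90th and 95th percentiles, and for both the level depended on the probe set. Ntrk2, the receptor of the neurotrophin BDNF, read 4.88, 5.06 and 5.07 in the controls with the brightest of its 7 probe sets, and the other 6 had control means from 2.18 to 4.42. Aldoc, the brain form of aldolase, read 4.92, 5.23 and 4.82, and its second probe set had a control mean of 2.59. In GCM LN18 they read 5.10, 4.90 and 4.96 for Ntrk2 and 5.02, 4.87 and 5.08 for Aldoc, within 0.02 of the control means on average.

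Of the oligodendrocyte lineage, Cnp lay above the 95th percentile. It read 5.79, 5.64 and 5.79 in the controls, 5.79, 5.70 and 5.77 in GCM LN18, and 5.57, 5.81 and 5.58 in GCM U87-MG, so that all 3 groups overlapped. Its second probe set had a control mean of 5.49, below that percentile. Sox10, the transcription factor that specifies oligodendrocytes, read 5.16, 5.12 and 5.17 in the controls, 5.21, 5.16 and 5.16 in GCM LN18, and 5.07, 5.17 and 5.11 in GCM U87-MG, but its other probe sets had control means of 3.70 and 2.91. Mag, a myelin protein at the axon surface, read 4.97, 4.73 and 4.68.

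The remaining oligodendrocyte markers lay below background. Mog had a control mean of 2.15, Mbp, the basic protein of compact myelin, 3.25, and the lineage transcription factors Olig1 and Olig2 had 3.38 and 2.31. Pdgfra, the receptor that marks oligodendrocyte progenitors and also fibroblasts, had 3.29. The neuronal markers Tubb3 and Map2, cytoskeletal proteins, Snap25 and Syt1, of the synaptic release machinery, Nefl, a neurofilament, and Stmn2, a growth cone protein, had control means from 2.13 to 3.30. The fibroblast markers Col1a1 and Col3a1, which are fibrillar collagens, and Dcn and Lum, which are matrix proteoglycans, had 2.23 to 3.24. The endothelial markers Pecam1, an adhesion molecule, and Cldn5, a tight junction protein, had 2.74 and 3.25.

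The medium comparisons asked whether these markers changed when microglia met the secretions of a glioma line. None of the 37 markers passed the test in either medium (limma with the replicate number as a block, Benjamini-Hochberg adjustment over all genes, threshold 0.05). Of all genes, 0.877% passed with GCM LN18 and 0.0468% with GCM U87-MG. Markers with an unadjusted p under 0.05 numbered 3 and 5, beside 12.2% and 9.12% of all genes. Without the block the counts were 1 and 0, beside 5.23% and 1.51% of all genes, with 6 and 10 at an unadjusted p under 0.05, beside 20.6% and 17% of all genes. The replicate means were already equal in the deposited values, so this fit counts more residual degrees of freedom (6) than remain (4). Its p-values therefore tend to be too low. The median log2 fold change of the markers was -0.02 with GCM LN18 and -0.01 with GCM U87-MG, against -0.00 over all genes in both. With the block, the p-values measure the spread among these 9 samples that remains after group and replicate number are fitted. Differences between replicate numbers are not in them.

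The size of any change was bounded for nearly every marker. In each medium the 95% confidence interval of 36 of 37 markers lay within 2-fold in either direction, Fabp7 being the exception. The lowest bound was -0.47 on the log2 scale for Mag in GCM LN18 and -0.51 for Mbp in GCM U87-MG. These are changes of signal, and for markers at background level the signal need not follow the RNA. In a bulk sample, moreover, fewer cells of a type and less RNA per cell cannot be told apart.

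**Figure D2:**
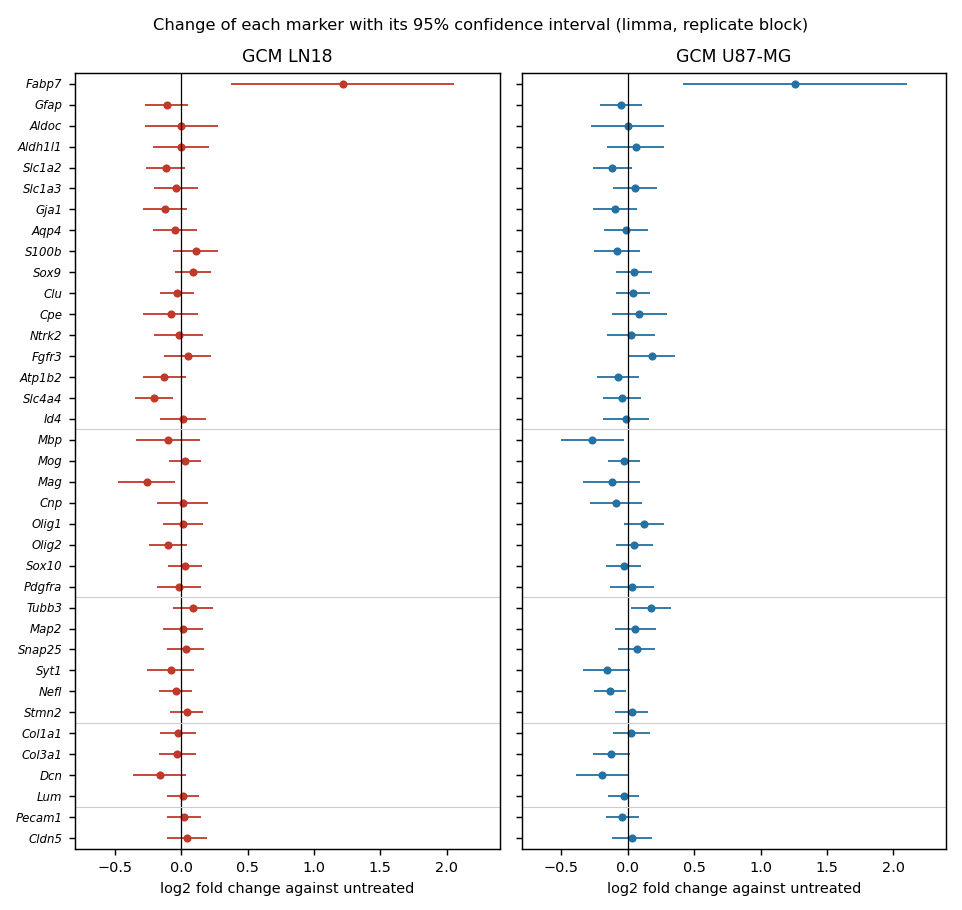
Log2 fold change of each of 37 markers against control in GCM LN18 and GCM U87-MG (x axis, log2 scale). Bars are 95% confidence intervals of the limma fit with the block. Every interval lies within 1 log2 unit of 0 except that of Fabp7, whose estimates are 1.22 and 1.26 and did not pass the test.

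Fabp7 had the highest log2 fold change of the markers in both media. It read 7.20, 7.84 and 7.37 in GCM LN18 and 7.22, 7.97 and 7.36 in GCM U87-MG, against 6.82, 5.44 and 6.52 in the controls, so that all 6 medium-treated samples lay above all controls. Group means were 6.26 ± 0.73 (SD, n = 3) in the controls, 7.47 ± 0.33 with GCM LN18 and 7.52 ± 0.40 with GCM U87-MG. The log2 fold change was 1.22 (SE 0.37, 95% interval 0.37 to 2.06, limma adjusted p = 0.210) in GCM LN18. It was 1.26 (SE 0.37, 95% interval 0.42 to 2.10, limma adjusted p = 0.365) in GCM U87-MG. Without the block the adjusted p was 0.0791 and 0.113.

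The size of this difference rested on replicate number 2. Within the replicate numbers 1, 2 and 3, Fabp7 differed from control by 0.38, 2.41 and 0.86 in GCM LN18 and by 0.40, 2.53 and 0.84 in GCM U87-MG. Without control replicate 2 the log2 fold change was 0.60 (limma adjusted p = 0.0794) in GCM LN18 and 0.64 (limma adjusted p = 0.203) in GCM U87-MG. In the deposited values the arrays of each replicate number had the same mean for every probe set, so a low control array goes with high medium arrays of that number by construction. Whether the control or the medium arrays of number 2 stood apart cannot be told from these values. The 2 media did not differ detectably from each other in Fabp7, with a log2 difference of -0.04 (95% interval -0.88 to 0.80, limma adjusted p = 0.991). Fabp7 had 1 probe set, so no other one was there to compare.

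**Figure D3:**
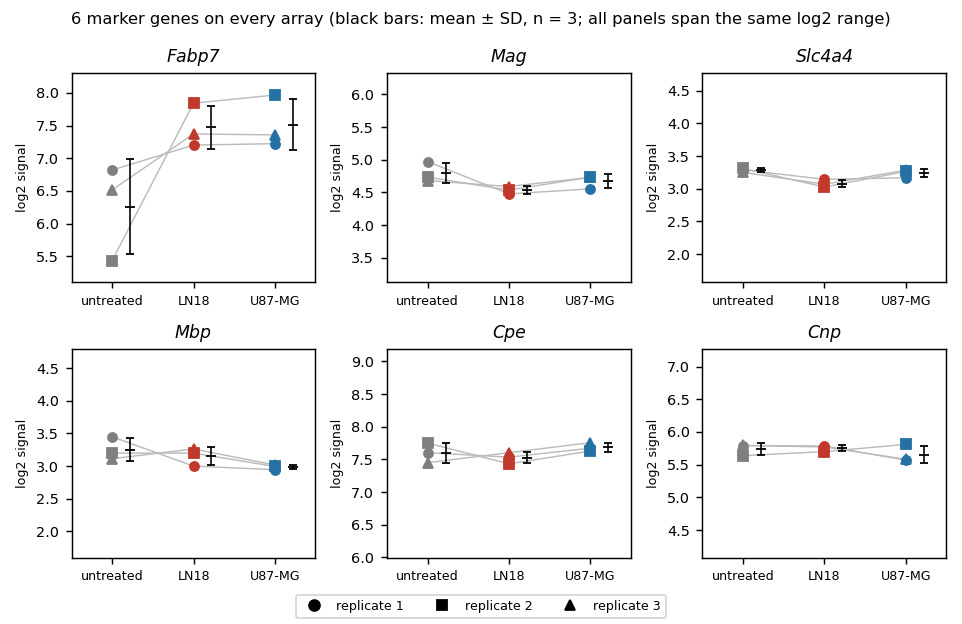
Log2 signal (y axis) of Fabp7, Mag, Slc4a4, Mbp, Cpe and Cnp in control, GCM LN18 and GCM U87-MG (x axis), with lines joining arrays of the same replicate number and bars for the mean ± SD (n = 3). All panels span the same log2 range. The Fabp7 controls lie below all medium arrays, with replicate 2 lowest at 5.44, whereas the other genes span at most 0.50.

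The sequence before the start of transcription is shown for Fabp7, the marker with the highest fold change, and for Gfap, the defining astrocyte marker that stayed at background level. Each window holds 250 bases before the start, 5′ to 3′ on the gene's strand, from RefSeq on GRCm38.p6. Capitals mark matches, on either strand, to TGGGAA, the core bound by the Notch effector RBPJ. The Fabp7 window is chr10:57784673-57784922 on the plus strand and the Gfap window is chr11:102897201-102897450 on the minus strand.
Fabp7: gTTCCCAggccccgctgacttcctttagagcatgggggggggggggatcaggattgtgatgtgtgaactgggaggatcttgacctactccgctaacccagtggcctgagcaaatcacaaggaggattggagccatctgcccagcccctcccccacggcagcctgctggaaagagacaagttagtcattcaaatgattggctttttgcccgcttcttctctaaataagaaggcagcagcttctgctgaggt
Gfap: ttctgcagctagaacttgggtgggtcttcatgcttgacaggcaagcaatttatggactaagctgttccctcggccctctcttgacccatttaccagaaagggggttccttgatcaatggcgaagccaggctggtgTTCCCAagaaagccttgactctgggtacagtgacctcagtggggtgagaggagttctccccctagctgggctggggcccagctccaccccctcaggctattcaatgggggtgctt
Each window held 1 match to TGGGAA, which 21.6% of all 32851 windows of this length hold. Neither held CAGAC, the SMAD box, which was in 42.2% of windows. A match is a description of letters and not a binding site.

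Among the other astrocyte and oligodendrocyte markers, Mag and Slc4a4 had the lowest log2 fold changes in GCM LN18. Slc4a4 read 3.29, 3.31 and 3.25 in the controls, 3.14, 3.03 and 3.07 in GCM LN18, and 3.17, 3.27 and 3.28 in GCM U87-MG, below the background percentiles throughout. Its log2 fold change in GCM LN18 was -0.20 (SE 0.06, limma adjusted p = 0.215 with the block and 0.0385 without it), and in that medium the other 3 probe sets of Slc4a4 had between -0.04 and 0.06. In GCM U87-MG its log2 fold change was -0.04. Mag read 4.48, 4.54 and 4.59 in GCM LN18 and 4.55, 4.73 and 4.73 in GCM U87-MG, with log2 fold changes of -0.26 (limma adjusted p = 0.296) and -0.12 (limma adjusted p = 0.744). All GCM LN18 samples were below all controls for both genes, while GCM U87-MG overlapped with the controls.

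In GCM U87-MG the lowest log2 fold change was that of Mbp. Its log2 signal was 3.45, 3.20 and 3.11 in the controls and 2.95, 2.996 and 3.02 in GCM U87-MG, a log2 fold change of -0.27 (limma adjusted p = 0.496). In GCM LN18 it read 3.001, 3.20 and 3.26, overlapping with the controls. Within replicate numbers 1, 2 and 3, Mbp in GCM U87-MG differed from control by -0.50, -0.20 and -0.10. Its second probe set had a log2 fold change of -0.05 in that medium. Tubb3 read 2.34, 2.31 and 2.30 in the controls and 2.53, 2.52 and 2.42 in GCM U87-MG, without overlap but at the lower end of the scale of these arrays. Markers whose samples all lay on one side of the controls numbered 5 in GCM LN18 (Fabp7 and Stmn2 above, Atp1b2, Slc4a4 and Mag below), where 11.1% of all genes lay above and 12.8% below. In GCM U87-MG there were 8 (Fabp7 and Tubb3 above, Gja1, Mbp, Nefl, Col3a1, Dcn and Lum below), beside 8.79% of all genes above and 10.3% below.

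Lineage means differed by less than 0.1 between the groups. The mean log2 level of the 17 astrocyte markers was 3.81 ± 0.02 (SD over arrays, n = 3) in the controls, 3.85 ± 0.01 with GCM LN18 and 3.89 ± 0.03 with GCM U87-MG, with Fabp7 among them. Most of the 17 did not share this rise. The log2 fold change was negative for 11 of them in GCM LN18 (median -0.03) and for 9 in GCM U87-MG (median -0.002). The mean of the 8 oligodendrocyte markers was 3.76, 3.71 and 3.72, and that of the 6 neuronal markers 2.71, 2.72 and 2.72. The 4 fibroblast markers averaged 2.65, 2.60 and 2.57 and the 2 endothelial markers 2.99, 3.02 and 2.99. The tissue-restricted genes averaged 3.18, 3.19 and 3.17 in the same order.

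Between the 2 media, none of the 37 markers passed the limma test, with the block (0% of all genes) or without it (0.00585% of all genes). At an unadjusted p under 0.05 there were 3 markers, S100b, Slc4a4 and Olig2, beside 5.06% of all genes, and 4 without the block, beside 12%. The highest difference, GCM LN18 minus GCM U87-MG, was 0.19 for S100b and the lowest -0.16 for Cpe. All 37 intervals lay within 2-fold in either direction. Samples of GCM LN18 lay above all of GCM U87-MG for S100b, Nefl, Col3a1 and Lum (4 markers, beside 8.92% of all genes) and below them for Cpe, Slc4a4 and Olig2 (3 markers, beside 8.48%). The second probe sets of S100b, Nefl and Col3a1 had differences of 0.01, -0.09 and 0.05. Those of the other Slc4a4 probe sets ran from -0.03 to 0.02. Apart from Cpe, these genes had control means below both background percentiles.

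Further markers of the same and neighbouring lineages, 77 measured of 86 listed, were read in the same way. In the controls, 3 lay above the 95th percentile of background. They were Vim, an intermediate filament of astrocytes that macrophages and fibroblasts also make, at a control mean of 11.63, Flt1, a VEGF receptor of endothelium and monocytes, at 6.62, and Plpp3, a lipid phosphatase of astrocytes and vessels, at 6.40. Another 10 lay between the percentiles, among them the matrix protein Postn at 5.58, Kdr, a VEGF receptor of endothelium, at 5.23, and Des, a muscle and mural cell filament, at 5.06. Among 8 ependymal and choroid plexus genes, Tmem212, at 4.67, lay between the percentiles and the others below both.

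None of these 77 passed the test with the block in any comparison. Those with an unadjusted limma p under 0.05 numbered 5 in GCM LN18, 8 in GCM U87-MG and 2 between the media, where the shares of all genes were 12.2%, 9.12% and 5.06%. Without the block, where p-values tend to be too low, 2 passed in GCM U87-MG and 0 in the other comparisons. They were Sparcl1, a matrix protein of astrocytes and vessels, with a log2 fold change of 0.37 (limma adjusted p = 0.212 with the block and 0.0404 without it), and Robo4, a receptor of endothelium, with 0.36 (0.236 and 0.0473). Among the microglia markers, 3 of 19 rose in GCM LN18, beside 0.877% of all genes that passed in either direction. The fractalkine receptor Cx3cr1 rose by a log2 fold change of 0.97 (limma adjusted p = 0.00827). Tmem119 rose by 0.91 (limma adjusted p = 0.0390) and the transcription factor Irf8 by 0.33 (limma adjusted p = 0.0480). Tmem119 went from a control mean of 3.88, below both background percentiles, to 4.79, below the 95th, so its fold change is one of signal near background. In GCM U87-MG 1 of 19 passed, Cx3cr1, which rose by 0.78 (limma adjusted p = 0.0499), beside 0.0468% of all genes. The Cx3cr1 call in GCM LN18 was lost without GCM LN18 replicate 2 (limma adjusted p = 0.0859). The call of Irf8 was lost without any 1 of the 9 arrays (limma adjusted p = 0.0610 to 0.226), and those of Tmem119 and of Cx3cr1 in GCM U87-MG without any 1 of 7 arrays (up to 0.228 and 0.360). The arrays whose removal kept them were control replicate 1 and GCM U87-MG replicate 1 for Tmem119, and control replicate 1 and GCM LN18 replicate 1 for Cx3cr1. Whether the lists differ from each other in their response was not tested.

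**Figure D4:**
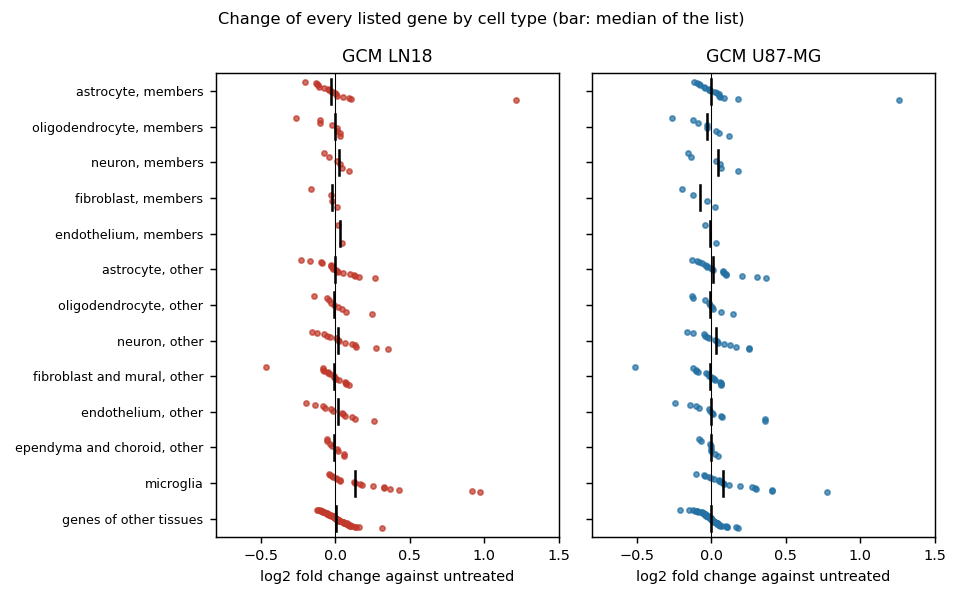
Log2 fold change (log2 scale) against control of every measured gene by list, in GCM LN18 and GCM U87-MG, each point 1 gene and each bar the median of its list. Apart from Fabp7, the markers of other cells lie within 0.52 of 0 in both media, while Cx3cr1 among the microglia markers reaches 0.97.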

How the data were processed

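RNA of 9 microglia samples was hybridized to 1 array each. The authors deposited log2 signals, which cover 45141 probe sets. The submitters' notes name limma; the study's methods name RMA beside public array data sets, and whether it was applied to these arrays is not clear. Array medians ran from 3.39 to 3.41. For 100% of probe sets the 3 arrays of each replicate number had equal means within 1e-06, as after removal of a replicate effect, so differences between replicate numbers cannot be read. The labels do not say that a number marks the same culture in all groups. Because of the equal means the replicate number was kept as a block, which leaves 4 residual degrees of freedom. Without the block the fit counts 6, too many for these values, and its p-values tend to be too low.

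The 104 control, 551 several-symbol and 15588 unnamed probe sets were left out. Of 28898 probe sets with 1 symbol, 28689 were matched to a current symbol, and the brightest per gene gave 17097 genes. Genes were tested with limma 3.58.1 in R 4.3.3 (lmFit and eBayes, 1 mean per group over all 9 arrays), and p-values were adjusted by Benjamini-Hochberg over all genes. Arrays have no read depth, and 3 per group limits the precision. The steps were tested on simulated data. Members and lists were chosen with earlier results of these data known. All members are named; members past a test or above background are given on every array, and of other lists at most the 3 brightest and the 2 highest and 2 lowest past the test. Alternatives were no block, moderation with a trend and robust variance, a filter on dim genes, the mean of the probe sets, every probe set, only the groups compared, quantile normalization, median centring, array weights, other background levels and leaving out each array.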

Additional observations from a re-analysis of the deposited data

How the results depend on the processing

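The count of markers passing the test stayed at 0 in all 3 comparisons under every alternative, except that with no replicate block it was 1 in GCM LN18 (Slc4a4). Without the replicate block the count of other marker genes, microglia markers included, that passed was 6 with GCM LN18 and 5 with GCM U87-MG, instead of 3 and 1. Over all genes, 5.23% and 1.51% passed without the block, and 0.877% and 0.0468% with it. With only the 2 groups compared the count of other marker genes was 1 and 0. In GCM U87-MG it was 2 with a trend and robust variance and 0 with the filter on dim genes or quantile normalization. Leaving out 1 array gave 0 (without GCM LN18 replicate 2) to 2 for GCM LN18 and 0 to 1 for GCM U87-MG.

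The filter on dim genes kept only markers brighter than the median gene, and their median log2 fold change in GCM LN18 was 0.00160. This is a smaller set than the 37 markers. Over all 37 it was -0.0171 with the mean of the probe sets and -0.00920 with array weights, and -0.0195 to 0.00400 with 1 array left out. In GCM U87-MG it was -0.0249 to 0.00553 with 1 array left out. Between the media it was -0.00462 with the mean of the probe sets and -0.0347 to -0.00453 with 1 array left out. The count of markers above background was 1 against the brightest tissue-restricted gene and 7 against the 90th percentile. With the mean of the probe sets, the control level was 3.39 for astrocyte, 3.56 for oligodendrocyte, 2.46 for neuronal and 2.58 for fibroblast markers. Of the values of single markers under the alternatives, 1811 moved by less than the replicate spread and 96 by more, and 1 passed the test that had not. The cause of these shifts was not tested.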
